A study of Mus musculus with 2 samples.

Results

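The Dlk1-Meg3 imprinted domain on mouse chromosome 12 was described in 2 haploid embryonic stem cell lines, A129-2 of strain 129Sv and AOS-14 of strain C57BL/6, by 1 bisulfite library of each. Its 7 members, of 49997 RefSeq genes in all, were chosen by position: Begain, Dlk1, Meg3, Rtl1, Rian, Mirg and Dio3, with 50 kb before Begain and 20 kb after Dio3. The interval is chr12:108982181-110301097 (mm10), and 927 of its 1865 listed CpGs were compared because both libraries covered them with 10 or more reads. Per the labels, both lines were established by sorting from AG-haploid embryos, taken here as androgenetic, so that their only chromosome set came from sperm. No treatment, passage or sex of the embryo is named, and each group is 1 line, so line, strain and library cannot be told apart. Every test below compares the reads of these libraries, not the lines or the strains, and no difference has a replicate check.

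As background, the domain is an imprinted cluster in which the parental chromosomes express different genes. Dlk1, which encodes a transmembrane protein of the Notch ligand family that restrains differentiation, Rtl1, a retrotransposon-derived gene needed in the placenta, and Dio3, the deiodinase that inactivates thyroid hormone, are expressed mainly from the paternal chromosome. The long noncoding RNAs Meg3, Rian and Mirg, which host small nucleolar RNAs and microRNAs, are expressed from the maternal chromosome. The switch is a control region between Dlk1 and Meg3, the intergenic differentially methylated region, which is methylated on the chromosome from sperm and unmethylated on the one from the egg. The Meg3 promoter gains methylation on the paternal chromosome later, after implantation. ZFP57, a zinc finger protein that binds a methylated motif, protects imprints of this kind in embryonic stem cells.

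The promoter sequences of Meg3 and Dio3 are shown because they carry the contrast in what the libraries covered: the first is a promoter with few CpGs and few reads, and the second a CpG island with deep coverage. Sequences are from RefSeq on GRCm38.p6, the assembly of mm10, and both promoters lie on the plus strand, 250 bases before to 50 after the start. Capitals mark the CpGs with at least 10 reads, in AOS-14 only for Meg3 and in both libraries for Dio3.
Meg3 promoter, chr12:109540746-109541045: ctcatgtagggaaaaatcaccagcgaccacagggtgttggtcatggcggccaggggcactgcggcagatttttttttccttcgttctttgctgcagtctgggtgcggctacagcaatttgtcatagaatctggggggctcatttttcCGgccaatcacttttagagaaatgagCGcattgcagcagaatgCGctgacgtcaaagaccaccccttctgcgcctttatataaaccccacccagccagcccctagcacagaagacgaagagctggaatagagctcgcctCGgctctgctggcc
Dio3 promoter, chr12:110278980-110279279: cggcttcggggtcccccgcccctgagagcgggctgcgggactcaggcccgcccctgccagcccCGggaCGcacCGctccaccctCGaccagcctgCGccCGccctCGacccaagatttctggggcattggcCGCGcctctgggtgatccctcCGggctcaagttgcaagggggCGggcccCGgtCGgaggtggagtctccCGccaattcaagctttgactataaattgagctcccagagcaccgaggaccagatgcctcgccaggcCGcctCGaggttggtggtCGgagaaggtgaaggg
The Meg3 sequence holds 13 CpGs and the Dio3 sequence 25. The ZFP57 motif TGCCGC, searched on both strands, occurred 1 time in the Meg3 sequence, on the minus strand, and was absent from the Dio3 window; 11.6% of 32851 RefSeq promoter windows of this length hold it. The cAMP response element TGACGTCA, which reads the same on both strands and does not overlap that match, also occurred 1 time in the Meg3 sequence and in 1.79% of all windows. Both motifs were chosen after the sequence had been seen.

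The microRNA hairpins with compared CpGs are shown for the same reason. Of 61 microRNA genes in the interval, Mir433 and Mir1247 were the 2 with any compared CpG, and they lie at the high and the low end of the levels found. Capitals in the hairpins mark compared CpGs. The last C of the Mir433 hairpin is the C of a CpG whose G lies beyond it. In the mature microRNAs capitals mark the seed, bases 2 to 8.
Mir433 hairpin, chr12:109591715-109591838, plus strand: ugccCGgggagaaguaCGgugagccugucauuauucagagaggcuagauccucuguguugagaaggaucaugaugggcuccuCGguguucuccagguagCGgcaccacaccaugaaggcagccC
Mir1247 hairpin, chr12:110278048-110278129, minus strand: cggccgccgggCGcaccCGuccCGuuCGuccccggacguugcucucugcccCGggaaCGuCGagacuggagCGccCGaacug
mmu-miR-433-5p: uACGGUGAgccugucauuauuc
mmu-miR-433-3p: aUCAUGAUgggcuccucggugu
mmu-miR-1247-5p: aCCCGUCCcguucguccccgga
mmu-miR-1247-3p: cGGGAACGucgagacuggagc
The 4 seeds are all different. No sequence of the control region before Meg3 is printed.

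The methylation level of a CpG is the percent of its reads that were methylated, and a region's level is the mean over its compared CpGs. Differences are A129-2 minus AOS-14 in percentage points. A CpG, a 1 kb window or a gene body was called when Fisher's exact test (two-sided, Benjamini-Hochberg adjusted over the whole table) gave an adjusted p under 0.05 and the difference was at least 25 points. Windows and gene bodies needed at least 5 CpGs. In windows, gene bodies and promoters the test used the reads summed over the CpGs, while the difference was that of mean levels. Intervals are exact 95% binomial intervals of the pooled reads of a region and cover counting error only, since reads copied by PCR are not independent molecules.

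The compared CpGs of the domain had a median depth of 65 in A129-2 against 83 in AOS-14, and 79 against 97 over the whole table of 1030368 CpGs. CpGs in a CCGG motif, the site that reduced representation sequencing cuts, made up 313 of the 927. They read higher than the other CpGs in both libraries, at 20.3% in A129-2 and 29.8% in AOS-14, against 6.37% and 10.4% outside CCGG. Levels at CpGs with CCGG also differed more between the strands of a CpG, by a median over 29 CpGs of 9.72 points in A129-2 and 9.52 in AOS-14, against 1.95 and 2.21 outside CCGG. The part of this motif in the levels below was not tested, so values in and outside CCGG are given beside the results for Begain, Dlk1, Meg3, Rtl1, Rian and the stretch before Meg3.

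Over the whole domain the mean methylation was 11.1% in A129-2 against 16.96% in AOS-14, a difference of -5.87 points. Both libraries read low. CpGs at 50% or above numbered 12 in A129-2 and 66 in AOS-14, and the highest single levels were 64.8% and 85.0%. A129-2 was lower at 611 CpGs, higher at 204 and equal at 112. The ratio of A129-2 to AOS-14 was 0.65 in the domain, 0.63 on all of chromosome 12 and 0.63 over the whole table, so the domain's lower level in A129-2 was close to that of the rest of the genome covered.

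**Figure D1:**
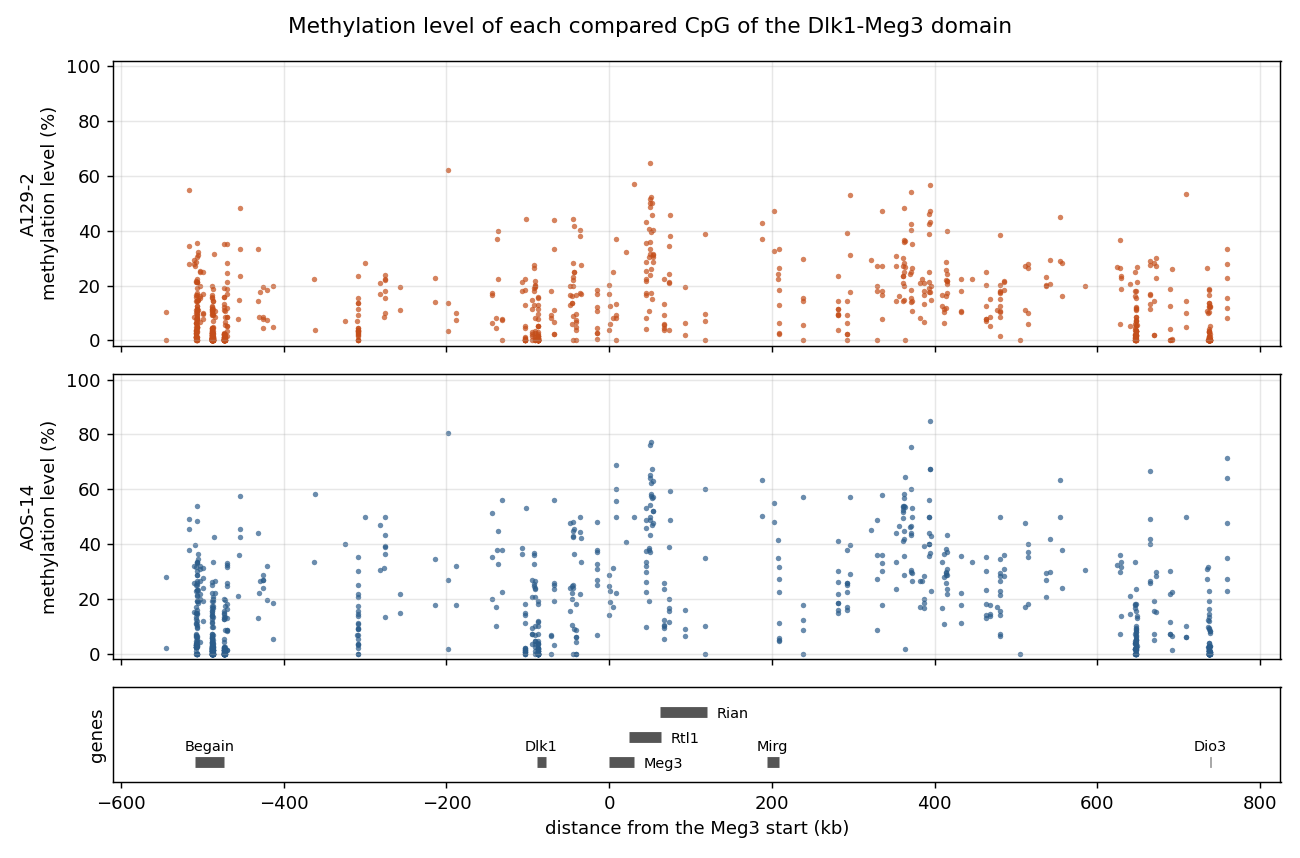
Methylation level (percent) of each of the 927 compared CpGs against its distance from the Meg3 start (kb), A129-2 above and AOS-14 below, with the 7 member genes as bars underneath. Levels near 0% gather at Begain, Dlk1 and Dio3, and the CpGs around Rtl1 reach 64.8% in A129-2 and 77.3% in AOS-14.

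Of the 927 CpGs, 30 were called lower in A129-2 (3.24%) and 0 higher, where 4.08% of all compared CpGs were called lower and 0.0297% higher. Without the size minimum, 108 CpGs passed the test as lower and 0 as higher, where 12.9% of all CpGs passed as lower and 0.154% as higher. Of the 48 windows of the domain, 3 were called lower (6.25%) against 5.04% of 51142 windows. Without the size minimum 33 of the 48 passed as lower, against 28173 of the 51142 (55.1%). No window of the domain was called higher, where 0.0137% of all windows were. As shares of all compared units, the called CpGs and windows are near the background, and these counts alone do not set the domain apart. A call as lower needs at least 25% in AOS-14. Of such CpGs, 30 of 280 were called in the domain and 42053 of 261288 in the whole table, a smaller share in the domain. Of such windows, 3 of 17 were called in the domain and 2575 of 16462 in the whole table. These gaps were not tested. The share of windows that passed as lower without the size minimum was above the background, a gap that was not tested. Where the calls lay within the domain was uneven, and the members are taken in turn below.

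**Figure D2:**
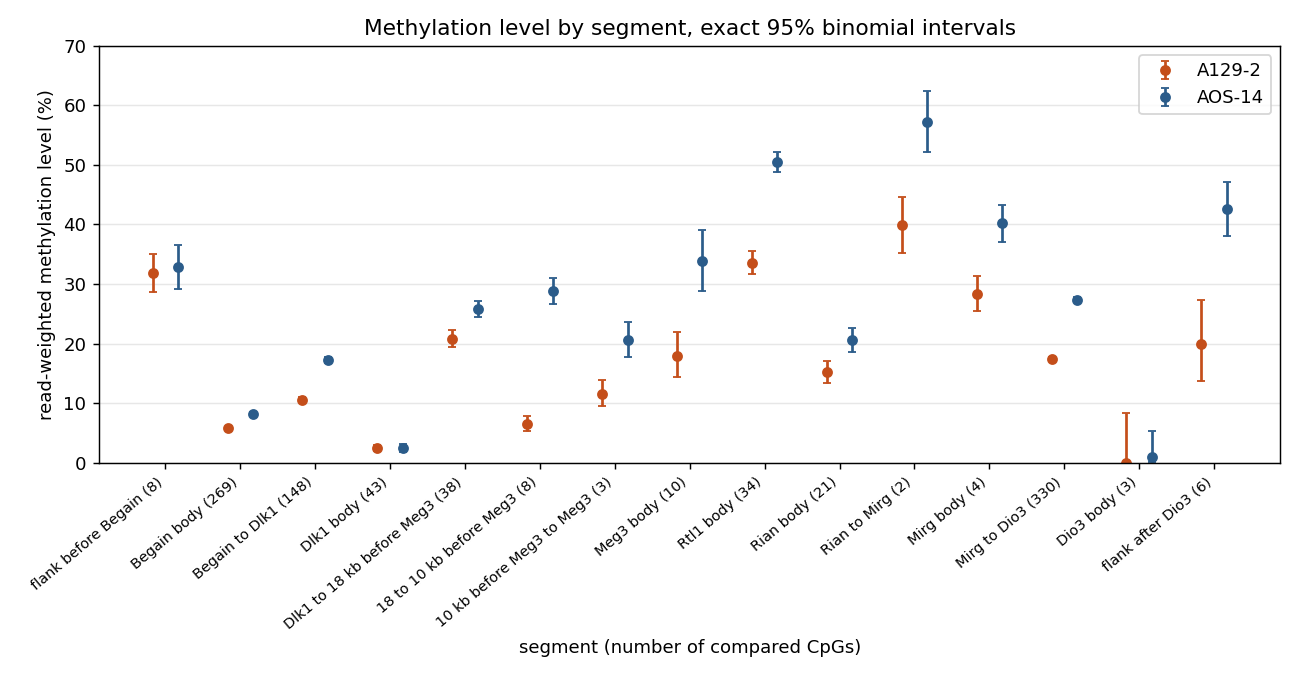
Read-weighted methylation level (percent) of 15 segments in genomic order, A129-2 left and AOS-14 right of each pair; points are all reads of the compared CpGs, bars exact 95% binomial intervals and numbers in brackets the compared CpGs. The pair 18 to 10 kb before Meg3 stands at 6.50% in A129-2 and 28.8% in AOS-14, while the Dlk1 pair coincides at 2.39%.

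The stretch 18 to 10 kb before the Meg3 start, where the control region is known to lie, held 8 compared CpGs between chr12:109525712-109526736. All 8 were lower in A129-2, with levels from 0.690% to 18.3% in A129-2 and from 6.96% to 48.0% in AOS-14. The deposited tables do not name the control region, and whether these CpGs lie inside its bounds was not tested. They lie in the body of Gm34081, a long noncoding RNA gene that runs up to Meg3. Depth was almost equal, with 1662 reads in A129-2, of which 108 were methylated, and 1669 in AOS-14, of which 481 were methylated.

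The CpGs formed 2 clusters. In the one farther from Meg3, position 109525712 had 11 methylated of 91 reads in A129-2 and 26 of 97 in AOS-14. Position 109525755 had 2 of 290 in A129-2 and 22 of 316 in AOS-14, and position 109525791 had 22 of 206 in A129-2 and 56 of 224 in AOS-14. None of these 3 CpGs was called, since their differences were below 25 points.

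In the nearer cluster, 5 CpGs between 109526678 and 109526736, position 109526678 had 26 methylated of 154 reads in A129-2 and 44 of 134 in AOS-14. Position 109526694 had 12 of 270 in A129-2 and 96 of 258 in AOS-14. Position 109526713 had 7 of 267 in A129-2 and 79 of 257 in AOS-14. The levels of these last 2 CpGs were 4.44% and 2.62% in A129-2 and 37.2% and 30.7% in AOS-14. Position 109526718 had 7 of 269 in A129-2 and 97 of 256 in AOS-14, and position 109526736 had 21 of 115 in A129-2 and 61 of 127 in AOS-14. The last 4 of the 5 CpGs were called lower.

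The window of this nearer cluster averaged 8.96% in A129-2 and 37.3% in AOS-14, a difference of -28.4 points (Fisher's exact test, adjusted p = 1.315e-64). Its ratio was 0.24, and 1.22% of all windows had a lower one. This rank was not matched for CpG density, and all 8 CpGs of the stretch had at most 9 listed CpGs within 100 bases. The library difference in this stretch was larger outside CCGG. The 4 CpGs outside CCGG averaged 2.59% in A129-2 and 28.2% in AOS-14, and the 4 in CCGG averaged 14.5% in A129-2 and 33.2% in AOS-14. Without the CCGG CpGs fewer than 5 CpGs remained in the window, so it could not be tested on that basis.

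**Figure D3:**
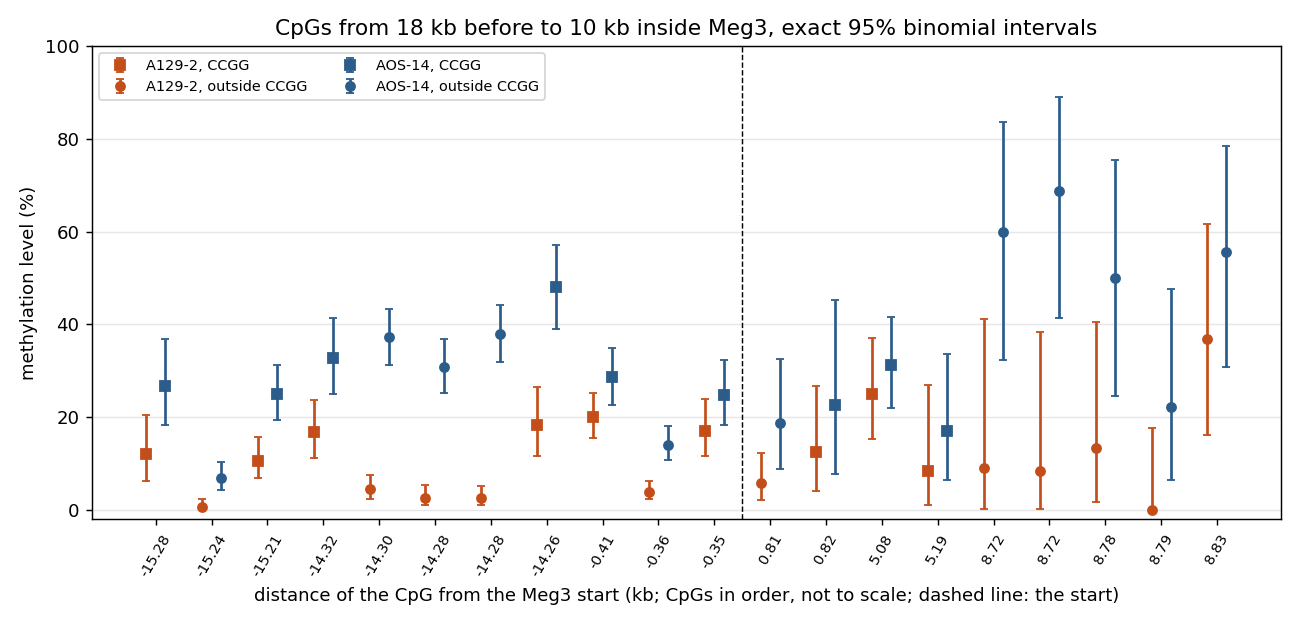
Methylation level (percent) of the compared CpGs from 18 kb before to 10 kb inside Meg3, in order of distance from the Meg3 start (not to scale); squares are CCGG CpGs, circles the others, A129-2 left and AOS-14 right of each pair, bars exact 95% binomial intervals. A129-2 is lower at every CpG shown, and the intervals of the CpGs at the right-hand end are wide because each rests on fewer than 20 reads.

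The rest of the sequence between Dlk1 and Meg3 was closer in the libraries. From the Dlk1 end to 18 kb before Meg3, 38 CpGs averaged 17.4% in A129-2 and 23.2% in AOS-14, a difference of -5.82 points, and 0 were called. Over all 49 CpGs between the genes the levels were 15.7% in A129-2 against 24.4% in AOS-14, and the 4 calls were those of the cluster above. Of Gm34081 as a whole, 34 CpGs averaged 16.0% in A129-2 and 25.7% in AOS-14, which include the same 8 CpGs.

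The Meg3 promoter, taken as 1 kb before to 0.5 kb after the start at 109540996, held 3 compared CpGs, all before the start, which is below the minimum for the test. Position 109540591 was at 20.1% in A129-2 and 28.6% in AOS-14. Position 109540637 was at 3.92% of 434 reads in A129-2 and 14.1% of 376 reads in AOS-14 (Fisher's exact test, adjusted p = 8.359e-06), and this was the one CpG of the 3 past the threshold of p, though short of 25 points. Position 109540644 was at 17.1% in A129-2 against 24.8% in AOS-14. The mean was 13.7% in A129-2 against 22.5% in AOS-14, a difference of -8.79 points; position 109540637 is the one outside CCGG (-10.2 points). Widened to 2 kb on each side, the promoter held 5 CpGs at 11.9% in A129-2 against 21.8% in AOS-14 (Fisher's exact test, adjusted p = 2.382e-07 over 12962 promoters of that width), again under 25 points.

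In the 300 bases printed above, the Meg3 start itself was read thinly. A129-2 had 4 reads over 4 listed CpGs, of which 0 were methylated, and AOS-14 had 63 reads over 6 listed CpGs, of which 2 were methylated (3.17%, interval 0.387% to 11.002%). The start could therefore not be compared between the libraries at this depth, and in AOS-14 it read below the 3 CpGs upstream of it.

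Within the body of Meg3 (chr12:109540996-109571729), all 10 compared CpGs were lower in A129-2. They averaged 15.1% in A129-2, with a range of 0% to 36.8%, and 38.7% in AOS-14, with a range of 17.1% to 68.8%, so the ranges overlapped. The difference was -23.6 points, just short of the 25 points needed for a call. The pooled reads, which the test compared, were at 17.99% in A129-2 and 33.8% in AOS-14. Their difference was smaller, at -15.8 points (Fisher's exact test, adjusted p = 1.786e-06). The 6 CpGs outside CCGG were at 12.2% in A129-2 against 45.9% in AOS-14 (-33.6 points), which passed the call, and the 4 in CCGG at 19.5% in A129-2 and 27.9% in AOS-14. Of all 20535 gene bodies tested, 1.14% had a more negative difference and 1.94% a lower ratio. These ranks were not matched for CpG density, and all 10 CpGs had at most 9 listed CpGs within 100 bases.

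Most of this came from 5 CpGs at chr12:109549716-109549823, all outside CCGG, which formed a called window at 13.5% in A129-2 against 51.3% in AOS-14 (-37.8 points, Fisher's exact test, adjusted p = 5.389e-06). Position 109549716 had 1 methylated of 11 reads in A129-2 and 9 of 15 in AOS-14. Position 109549718 had 1 of 12 in A129-2 and 11 of 16 in AOS-14, the largest difference among the called CpGs of the domain at -60.4 points (exact test, adjusted p = 1.941e-02). The other 3 CpGs were at 13.3%, 0% and 36.8% in A129-2 and at 50%, 22.2% and 55.6% in AOS-14.

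The depth there was 76 reads in A129-2 and 83 in AOS-14 over the 5 CpGs, and neighbouring CpGs share reads. With a minimum of 20 reads the window was lost and Meg3 kept 5 CpGs, at 16.7% in A129-2 against 26.1% in AOS-14, a difference of -9.35 points (Fisher's exact test, adjusted p = 8.693e-03). Those deeper CpGs, near the start and at 109562182, were lower in A129-2 at each position. At 109562182, the CpG nearest the 3′ end, 32.1% of 106 reads were methylated in A129-2 and 40.7% of 59 in AOS-14.

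Dlk1 (chr12:109452485-109463336) was close to unmethylated in both libraries. Its 43 compared CpGs all lay at chr12:109453340-109453967, at the 5′ end of the gene, and averaged 2.42% in A129-2 and 2.52% in AOS-14, a difference of -0.107 points (Fisher's exact test, adjusted p = 1). The intervals of the pooled reads were 1.86% to 3.02% in A129-2 and 1.85% to 3.04% in AOS-14. The 36 CpGs outside CCGG were at 0.871% in A129-2 against 0.845% in AOS-14, and the 7 in CCGG at 10.4% in A129-2 and 11.1% in AOS-14. No compared CpG lay in the rest of the gene or in the 1 kb before its start.

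Between Begain and Dlk1, 148 CpGs averaged 10.9% in A129-2 and 18.6% in AOS-14, and 5 were called lower. They included position 109178996, outside any gene, with 1 methylated of 26 reads in A129-2 and 7 of 12 in AOS-14 (-54.5 points, adjusted p = 5.262e-03 by Fisher's exact test). Position 109408806 was at 7.69% in A129-2 against 55.9% in AOS-14, and position 109408922 at 0% in A129-2 and 37.9% in AOS-14. Both lay in a part with 3 compared CpGs, too few for a window.

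Begain, which encodes a protein of the postsynaptic density in neurons and bounds the domain on the far side of Dlk1, held 269 compared CpGs (chr12:109032181-109068242). They averaged 5.47% in A129-2 and 7.68% in AOS-14, a difference of -2.21 points (Fisher's exact test, adjusted p = 1.171e-26), and 1 CpG was called. Outside CCGG 218 CpGs were at 3.14% in A129-2 and 4.63% in AOS-14 (-1.48 points). The 51 in CCGG were at 15.4% in A129-2 and 20.7% in AOS-14 (-5.33 points). The level varied along the gene. At the promoter 70 CpGs were at 2.67% in A129-2 against 2.91% in AOS-14 (Fisher's exact test, adjusted p = 0.573). The island inside the gene read 2.74% in A129-2 against 4.16% in AOS-14 over the 85 CpGs of its larger window.

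Towards the 3′ end of Begain, levels were higher and further apart. The window at chr12:109034010-109034271 had 23 CpGs at 13.7% in A129-2 against 20.2% in AOS-14, and its last CpG, 109034271, was at 21.5% in A129-2 against 48.3% in AOS-14 (Fisher's exact test, adjusted p = 1.581e-05), the call of this gene. In the 50 kb before Begain, 8 CpGs averaged 24.2% in A129-2 and 29.4% in AOS-14, and 0 were called. The body of Wdr25, which lies mostly in that flank and before it, had 43 CpGs at 13.9% in A129-2 against 19.95% in AOS-14.

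Rtl1 (chr12:109564900-109604418) was the most methylated member with at least 5 CpGs in both libraries. Its 34 compared CpGs averaged 32.6% in A129-2 and 47.7% in AOS-14, a difference of -15.1 points (Fisher's exact test, adjusted p = 2.559e-35), with 29 CpGs lower in A129-2. Single levels ran from 4.26% to 64.8% in A129-2 and from 9.64% to 77.3% in AOS-14, and 6 CpGs in A129-2 and 17 in AOS-14 were at 50% or above. Of all tested gene bodies, 0.594% had a higher level in A129-2 and 1.17% in AOS-14. These ranks were not matched for CpG density. All 34 CpGs had at most 9 listed CpGs within 100 bases, where the domain averaged 18.1% in A129-2 and 28.2% in AOS-14. The level was high in and outside CCGG, at 36.3% in A129-2 against 51.3% in AOS-14 over 17 CpGs in CCGG, and at 29.0% in A129-2 against 44.1% in AOS-14 over 17 outside it.

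Rtl1 held 5 called CpGs of 34, against 1 of 10 in Meg3, 1 of 269 in Begain, 0 of 43 in Dlk1 and 0 of 21 in Rian. Of all compared CpGs, 4.08% were called lower. A call as lower needs at least 25% in AOS-14, which 280 of the 927 CpGs of the domain had. Of these 280, 30 were called, where 42053 of 261288 such CpGs were called over the whole table. The count in Rtl1 was not set against CpGs of like level, so it is not read as a trait of the gene. The highest CpG of Dlk1 was at 19.4% in AOS-14, so that none there could be called lower. In Rtl1 the called CpG with the largest difference, 109592982, had 4 methylated of 23 reads in A129-2 and 28 of 48 in AOS-14. Position 109593015 was at 26.2% of 130 reads in A129-2 and 57.7% of 196 reads in AOS-14, position 109593648 at 14.9% in A129-2 against 47.0% in AOS-14, and position 109594877 at 30.4% in A129-2 and 63.1% in AOS-14. Its windows fell short of the call: the one at chr12:109593015-109593716 was at 38.1% in A129-2 and 61.4% in AOS-14 (-23.3 points), and the one at chr12:109594679-109594943 at 32.5% in A129-2 and 54.4% in AOS-14 (-22.0 points). With windows of 2 kb, the one at chr12:109592982-109593716 was called, at 35.1% in A129-2 and 60.9% in AOS-14 (-25.8 points, Fisher's exact test, adjusted p = 6.706e-20). A129-2 had fewer reads in Rtl1, 2199 against 3454 in AOS-14.

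Mir433 lies inside Rtl1, on the strand of the maternally expressed RNAs, and the fifth called CpG of Rtl1 is in it. Its 5 CpGs averaged 46.5% in A129-2 against 60.6% in AOS-14 (-14.1 points, Fisher's exact test, adjusted p = 2.325e-07). Base 17 of the hairpin, inside the seed of miR-433-5p, was at 35.8% in A129-2 against 65.1% in AOS-14 (exact test, adjusted p = 4.090e-04), the called CpG. Base 100 was the highest in both, at 64.8% in A129-2 and 76.1% in AOS-14. Base 5 alone was higher in A129-2, with 51.7% of 29 reads methylated, against 43.3% of 30 reads in AOS-14, with overlapping intervals. The same 5 CpGs are all those compared in the noncoding gene 6430411K18Rik, which overlaps the hairpin, and the 8 CpGs of that gene's promoter window were at 42.5% in A129-2 and 54.8% in AOS-14.

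**Figure D4:**
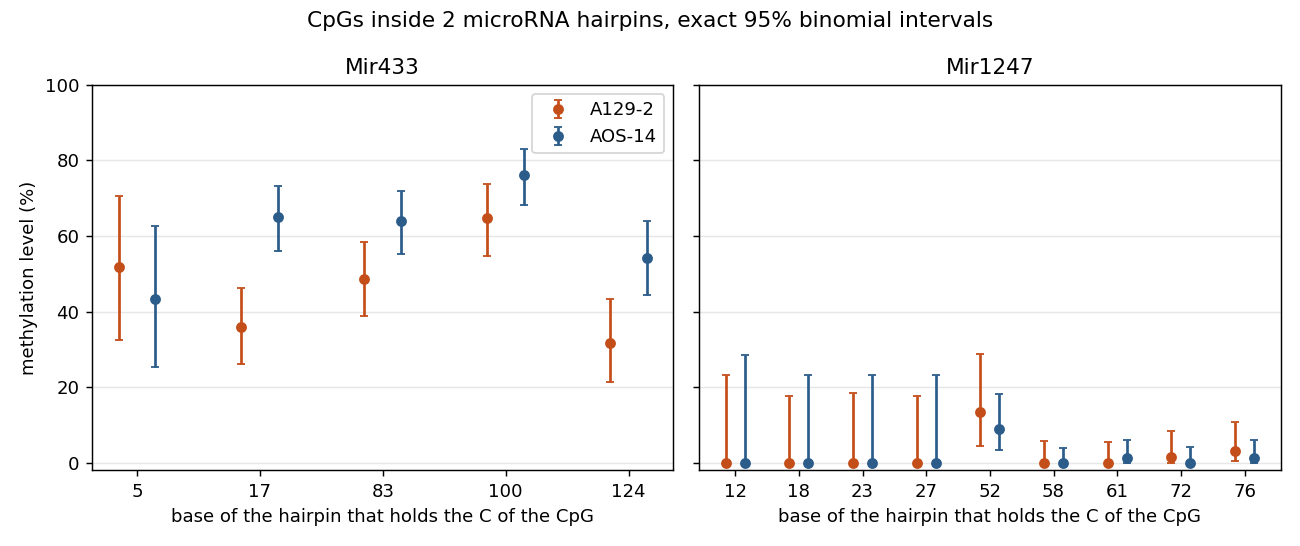
Methylation level (percent) of the CpGs inside the Mir433 hairpin, in Rtl1, and the Mir1247 hairpin, beside Dio3, by the base of the hairpin; A129-2 left and AOS-14 right of each pair, bars exact 95% binomial intervals. Mir433 stands between 31.6% and 64.8% in A129-2 and between 43.3% and 76.1% in AOS-14, while Mir1247 stays at 13.5% or below in both.

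Rian (chr12:109603945-109661716), which hosts small nucleolar RNAs, had 21 compared CpGs at 16.0% in A129-2 against 21.1% in AOS-14. The difference was -5.09 points (Fisher's exact test, adjusted p = 1.649e-04), and 0 of the CpGs were called. Outside CCGG 12 CpGs were at 7.76% in A129-2 against 9.99% in AOS-14 (-2.23 points). The 9 in CCGG were at 27.1% in A129-2 and 36.0% in AOS-14 (-8.89 points). Its highest CpGs, 109615318 and 109658588, were at 45.8% and 38.9% in A129-2 and at 59.2% and 60% in AOS-14. The 19 annotated small nucleolar RNAs of the interval, some of which lie past the annotated end of Rian, held 0 compared CpGs. The promoter window of Rian also held 0.

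Mirg (chr12:109734981-109749458), the host of a large microRNA cluster, had 4 compared CpGs, too few for the gene test. Position 109743814 was at 47.3% in A129-2 against 55.0% in AOS-14, and position 109743846 at 32.6% in A129-2 and 48.1% in AOS-14. Position 109748701 was at 24.4% in A129-2 against 41.4% in AOS-14, and position 109748772 at 22.6% in A129-2 against 34.7% in AOS-14. These last 2 CpGs passed the test per CpG (Fisher's exact test, adjusted p = 1.780e-04 and 1.189e-03), without reaching 25 points. Between Rian and Mirg, where most of the microRNA genes of that cluster lie, there were 2 compared CpGs, at 42.8% and 36.9% in A129-2 and at 63.4% and 50.3% in AOS-14. No microRNA gene there held a compared CpG, so the cluster itself could not be compared.

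Dio3 (chr12:110279230-110281097) was at or near 0% in both libraries. Its 3 compared CpGs had 0 methylated of 42 reads in A129-2 (interval up to 8.41%) and 1 of 104 in AOS-14 (0.962%, interval up to 5.24%). The promoter, with far more reads, gave the same picture: 52 CpGs averaged 1.95% in A129-2 against 2.22% in AOS-14 (Fisher's exact test, adjusted p = 0.4895), with pooled intervals of 1.20% to 1.94% in A129-2 and 1.46% to 2.20% in AOS-14. Of the 25 CpGs in the sequence printed above, 17 were compared.

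Mir1247 lies in the same island. Its 9 CpGs averaged 2.01% in A129-2 against 1.23% in AOS-14 (Fisher's exact test, adjusted p = 0.6576), and the one in a CCGG motif, base 52, was the highest at 13.5% of 37 reads in A129-2 and 8.82% of 68 reads in AOS-14. Dio3os, the noncoding RNA read in the opposite direction from Dio3, had 20 CpGs at 2.91% in A129-2 against 7.35% in AOS-14 (Fisher's exact test, adjusted p = 0.07262). The window of Dio3os at chr12:110277607-110277997 borders the window of 66 CpGs that begins at 110278003. It was at 2.26% in A129-2 against 13.1% in AOS-14 over 6 CpGs. Its pooled reads were at 1.27% of 158 in A129-2 and 8.54% of 246 in AOS-14.

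The long stretch between Mirg and Dio3 held 330 compared CpGs at 12.8% in A129-2 against 19.3% in AOS-14, 13 of them called lower. The called window there, chr12:109902291-109902332, lies in no gene and had 6 CpGs at 23.2% in A129-2 against 50.3% in AOS-14 (-27.1 points, Fisher's exact test, adjusted p = 1.111e-126). It held 4543 reads in A129-2 and 3236 in AOS-14, and the next window, chr12:109903228-109903322, held 6303 in A129-2 and 9231 in AOS-14 and was not called, at 29.8% in A129-2 and 45.6% in AOS-14 (-15.8 points). Without the deepest 1% of CpGs the window was no longer there, and with a minimum of 5 reads a further CpG brought it to -24.6 points, below the call. With windows of 2 kb it was not among the called ones either. The part of this depth in the result was not tested.

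Of the long noncoding RNA genes in this stretch, Gm34554 averaged 25.6% in A129-2 and 39.6% in AOS-14, Gm34667 13.9% in A129-2 and 21.6% in AOS-14, and Gm34719 20.2% in A129-2 and 31.2% in AOS-14. Gm40575 was at 16.1% in A129-2 and 29.7% in AOS-14, with position 110205734 at 2 methylated of 12 reads in A129-2 and 22 of 33 in AOS-14 (-50 points, Fisher's exact test, adjusted p = 4.430e-02). Gm40576 was at 7.71% in A129-2 against 13.5% in AOS-14. These 5 genes passed the test as lower without the size minimum. Gm34895, which overlaps Gm40575, was at 18.1% in A129-2 against 17.1% in AOS-14 (exact test, adjusted p = 0.19) and did not. After Dio3, the 6 CpGs of the 20 kb flank were at 19.96% in A129-2 and 44.7% in AOS-14, with 146 reads in A129-2 and 479 in AOS-14.

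**Figure D5:**
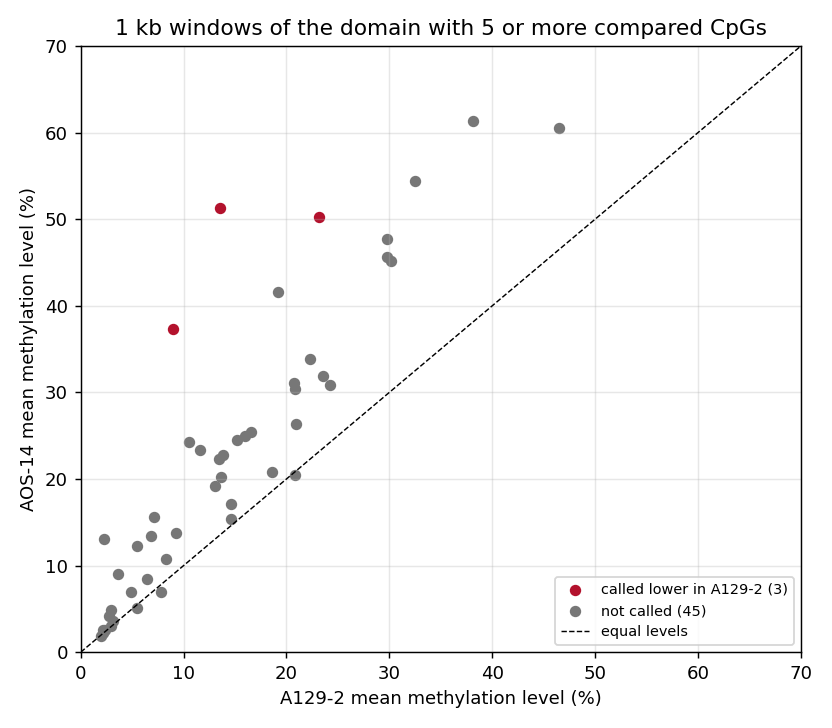
Mean methylation level (percent) of the 48 windows of the domain of 1 kb with at least 5 compared CpGs, A129-2 on the horizontal and AOS-14 on the vertical axis; the dashed line marks equal levels. The 3 called windows lie above the line, at 8.96%, 13.5% and 23.2% in A129-2 and 37.3%, 51.3% and 50.3% in AOS-14, and 44 of the 48 lie above it.

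Set side by side, 5 of the 7 members had enough CpGs for the gene test, and 0 were called. Of 20535 gene bodies, 0.891% were called lower and 0.00487% higher. Begain, Dlk1 and Rian, with AOS-14 means of 7.68%, 2.52% and 21.1%, could not fall by 25 points and so could not be called lower. Without the size minimum, Begain, Meg3, Rtl1 and Rian passed as lower and Dlk1 did not, where 75.1% of all gene bodies passed as lower and 0.765% as higher. The order of mean level was Rtl1, Rian, Meg3, Begain and Dlk1 in A129-2 and Rtl1, Meg3, Rian, Begain and Dlk1 in AOS-14. The place of Rian before Meg3 in A129-2 depended on the measure. It turned in the pooled reads, at 15.1% for Rian and 17.99% for Meg3. It also turned outside CCGG (7.76% and 12.2%) and at a minimum of 20 reads (14.6% and 16.7%). In CCGG it did not turn (27.1% and 19.5%). Rian and Meg3 had overlapping pooled intervals in A129-2, 13.3% to 17.1% and 14.4% to 22.0%, while the other neighbours in the order of mean level did not overlap. In AOS-14 no neighbours overlapped. These intervals cover counting error and not the spread between CpGs, which was wide in each gene.

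The level of a CpG followed how densely CpGs were listed around it. In the domain, CpGs with 1 to 3 listed CpGs within 100 bases averaged 20.3% in A129-2 and 31.6% in AOS-14, and those with 20 or more averaged 3.26% in A129-2 and 3.96% in AOS-14. In the rest of the table the same classes were at 18.9% in A129-2 against 30% in AOS-14, and at 2.11% in A129-2 against 2.65% in AOS-14. With 4 to 9 listed CpGs the domain stood at 16.7% in A129-2 against 26.0% in AOS-14, and the rest of the table at 14.3% in A129-2 and 23.6% in AOS-14. With 10 to 19 the values were 6.47% (A129-2) and 10.2% (AOS-14) in the domain, and 5.25% (A129-2) and 7.88% (AOS-14) in the rest. The domain was thus higher than the rest in all 4 classes and both libraries, a difference that was not tested. CpGs with at most 9 listed CpGs within 100 bases were 21 of the 269 in Begain and 1 of the 43 in Dlk1. They were all 10 in Meg3, all 34 in Rtl1, all 21 in Rian and all 4 in Mirg, but also all 3 in the body of Dio3.

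Over the whole domain, CpGs that did not reach 10 reads pointed the same way when pooled. In A129-2, 612 CpGs with 1 to 9 reads gave 16.0% methylated of 1477 reads, and in AOS-14 598 such CpGs gave 20.8% of 1296 reads, with intervals of 14.2% to 18.02% and 18.7% to 23.1%. By segment the pools did not all point that way. In Rtl1 13 of 54 reads were methylated in A129-2 and 11 of 55 in AOS-14. In Begain it was 16 of 306 in A129-2 and 11 of 288 in AOS-14. A129-2 was also higher in Dlk1, Mirg, the stretch from Rian to Mirg and the flank after Dio3. All these pairs had overlapping intervals. A129-2 was lower in Meg3, Rian, the flank before Begain and the other stretches between members. The CpGs of the pools differ between the libraries. In the stretch 18 to 10 kb before Meg3 the pools held 6 reads in A129-2 and 11 in AOS-14, which is too few to add to the values above.

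The promoters of genes known to maintain imprints or to set DNA methylation were compared as a fixed list. Of 17 genes, 16 were found and 12 had enough CpGs, and 0 of the 12 were called, where 0.218% of 11451 promoters were called lower and 0.0175% higher. The 12 had a median of 2.09% in A129-2 and 3.19% in AOS-14, while the medians over all promoters stood at 2.79% (A129-2) and 3.48% (AOS-14). Without the size minimum 6 passed as lower, and 0 as higher, where 27.7% and 0.629% of all promoters did. The largest differences were those of Uhrf1, which recruits the maintenance methyltransferase, at 1.90% in A129-2 against 4.12% in AOS-14, and of Ezh2, the Polycomb methyltransferase, at 2.22% in A129-2 and 3.69% in AOS-14. Ezh2 was among the 6 and Uhrf1 was not (Fisher's exact test, adjusted p = 3.307e-02 and 5.811e-02). Dnmt3a, a de novo methyltransferase, had a mean over CpGs of 2.79% in A129-2 and 2.27% in AOS-14, an order that turned in the pooled reads (1.78% for A129-2 and 2.07% for AOS-14), and it did not pass the test. Zfp57, Trim28, Dnmt1 and Dnmt3l held 0 compared CpGs in their promoters.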

How the data were processed

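Genomic DNA of 2 lines was measured with 1 library each. Per the labels' protocols, about 100 Mb of sequence was captured with a SureSelect panel, treated with bisulfite and sequenced as pairs on an Illumina HiSeq instrument, while the titles name reduced representation sequencing (RRBS); this was not settled. The submitters' processing notes name BSMAP and mm10. The version, trimming or handling of duplicates is not given in the sources used here. The authors deposited, per CpG, the level (a fraction between 0 and 1) and the counts of all and of methylated reads of both strands. Recomputed levels differed from the fraction by at most 0.0005 at every row.

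Positions were raised by 1 to count from 1. CpGs that both libraries covered with at least 10 reads entered Fisher's exact test (two-sided) on deposited counts, adjusted over all CpGs, windows, gene bodies or promoters. At 10 reads an exact 95% interval runs from 18.7% to 81.3%, and at 100 reads from 39.8% to 60.2%. Genes, starts and sequences came from RefSeq on GRCm38.p6, where all 7623 chromosome 12 CpGs inside promoter sequences were CG. The promoter of Rtl1 was not used here. The planned test of the Meg3 promoter needed 5 CpGs and was made only for the wider bounds. Named were the 7 members, other genes of the interval with at least 5 CpGs, called windows, the 3 called CpGs with the largest differences and, of the 17 imprint factors, those with the largest differences; other CpGs were named after their values were seen. The members and lists were chosen with earlier results of these data known. The test was checked on simulated reads. Tests ran in Python 3.11.15 with scipy 1.17.1, numba 0.67.0, numpy 2.4.6 and pandas 2.3.3, and plots in matplotlib 3.10.9.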

Additional observations from a re-analysis of the deposited data

How the results depend on the processing

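The direction held in every alternative run for the domain, the sequence between Dlk1 and Meg3, the Meg3 promoter and the bodies of Begain, Meg3, Rtl1 and Rian. Dlk1, which did not pass the test, turned to 0.0259 points without CCGG CpGs and to 0.00206 weighted by reads. The domain's difference of -5.87 points was -4.07 without CCGG CpGs, -8.02 weighted by reads and -10.1 at CpGs with at most 9 listed CpGs within 100 bases, an alternative added after the data were seen. Between Dlk1 and Meg3 it was -11.4 at a minimum of 20 reads, -13.5 at 50 reads, -6.72 without CCGG CpGs, -10.6 weighted by reads and -22.2 in the stretch 18 to 10 kb before Meg3, which itself became -25.6 without CCGG CpGs (also added later).

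The 30 called CpGs became 18 at a minimum of 50 reads, 16 without CCGG CpGs, 51 at a difference of 20 points and 6 at 40 points. The 3 called windows became 1 without CCGG CpGs, the one in Meg3, 6 at a difference of 20 points and 5 with at least 3 CpGs. They numbered 2 at minimums of 5, 20 and 50 reads and without the deepest 1% of CpGs; the window before Meg3 was among them each time. With windows of 2 kb the number stayed at 3, but one in Rtl1 was called and the one between Mirg and Dio3 was not. Without CCGG CpGs 1 member gene body was called, Meg3 at -33.6 points, against 0 with them. For moves with no value given to show why, the cause was not tested. Leaving out a library leaves no comparison. No paired analysis was possible because each line has 1 library. Depth limits, among others, the start of Meg3, the CpGs at 10 to 19 reads inside it, the body of Dio3 and the flank after it.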
